A study of Homo sapiens with 52 samples.

Results

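The replication-dependent histone genes examined here were the 69 protein-coding genes of the H1, H2A, H2B, H3 and H4 families that carry cluster numbering in their symbols (H1-1 to H1-6, and H2A, H2B, H3 or H4 followed by C and a number), out of 78894 genes quantified. The set held 6 H1, 17 H2A, 18 H2B, 13 H3 and 15 H4 genes. Of these, 55 lie in the histone clusters of the short arm of chromosome 6, 13 on chromosome 1 and 1 on chromosome 12. Their mRNA was measured by bulk RNA-seq in 52 samples of 3 established claudin-low breast cancer cell lines, SUM159PT, MDA-MB-231 and HS578T, in which NRP1, the gene of the co-receptor neuropilin-1, was knocked down. Each line had 6 groups. The siRNA groups received 20 nM of a non-targeting siRNA (siNT), of siNRP1#3, which targets the transmembrane forms of NRP1, or of siNRP1#5, which targets all forms, and RNA was taken after 72 hours. In the other groups an shRNA was delivered by lentivirus, either a control without target (shNT) or shNRP1#3 or shNRP1#5. As with the siRNAs, shNRP1#3 targets transmembrane NRP1 and shNRP1#5 the soluble form as well. The sequences of siNRP1#5 and shNRP1#5 are identical, while those of siNRP1#3 and shNRP1#3 differ. Transduced cells were selected in puromycin before use and taken 48 hours after seeding. Samples of an shRNA group were consecutive passages of transduced cells. Groups held 3 samples, except that SUM159PT siNRP1#5 had its replicates 2 and 3 and HS578T shNRP1#3 its replicates 1 and 2, since the authors had removed 1 outlying sample from each.

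Replication-dependent histone genes supply the core histones (H2A, H2B, H3 and H4) and the linker histone H1 that package newly copied DNA, and are transcribed mainly in S phase. Most of their mRNAs are not polyadenylated. They end in a short conserved stem-loop that is bound by the stem-loop binding protein SLBP, which takes part in their processing, export, translation and decay. The same genes can also yield polyadenylated transcripts that run past the stem-loop, and such forms are known from differentiated and tumour cells. The libraries of this series were stranded and enriched for poly(A) RNA, so the levels below are those of the histone RNA that passed this enrichment and not of all histone mRNA in the cells.

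The stem-loop is shown because it defines the class and because poly(A) enrichment selects against transcripts that end in it. The histone stem-loop, searched within 100 bases after the stop codon as 16 letters that begin with GG, end with CC and form a stem of 6 pairs (G-U allowed) around a loop of 4 bases, was present in 69 of 69 members. The search also fixed the stem pair next to the loop as T with A. Within the loop, it required T at the start and again just before the last letter. Across 19600 coding genes a stem-loop of this stricter form was found in 72, or 0.367%, and the other 3 were H2AX, H3-4 and H3-7. It began 23 to 68 bases after the stop codon, with a median of 36 bases. The members carried 10 versions of the 16 letters, of which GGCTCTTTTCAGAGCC occurred in 40 members and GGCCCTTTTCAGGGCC in 10. The stem-loops of 6 members that the results turn on are printed 5′ to 3′ on the coding strand of GRCh38, with the stem-loop in capitals. They are, in order, at chr6:27146361-27146386 (minus strand), chr6:26055739-26055764 (minus), chr6:26158582-26158607 (plus), chr6:26124664-26124689 (plus), chr6:27133510-27133535 (plus) and chr1:149833027-149833052 (plus).
H2BC12: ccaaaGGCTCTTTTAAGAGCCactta
H1-2: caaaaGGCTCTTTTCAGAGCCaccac
H2BC5: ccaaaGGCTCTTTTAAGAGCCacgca
H2AC6: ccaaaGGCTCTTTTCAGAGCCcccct
H2AC11: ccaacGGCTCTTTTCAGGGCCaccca
H4C14: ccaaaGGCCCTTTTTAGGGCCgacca

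H2BC12 and H2BC5, the H2B genes with the highest levels, had the same stem-loop letters. That of H2AC11 occurred in 1 member only and holds a G-U pair in the RNA.

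Upstream of the genes, 300-base promoters (250 bases before the start and 50 after, RefSeq, GRCh38.p14) were given for 64 of the 69 members. The letters TATAAA, searched like the others on both strands, were in 65.6% of the members' promoters and in 11.53% of all 35116 promoters. CCAAT was in 84.4% of members against 34.6% of all, with every H1, H2A, H2B and H3 promoter holding it and 23.1% of the H4 promoters. The octamer ATTTGCAT, which POU2F1 (OCT1) binds in H2B promoters, was in 40.6% of members against 1.77% of all. It was in 77.8% of the H2B and 68.8% of the H2A promoters, and in none of the 6 H1 or 13 H4 promoters. A total of 8 octamers lay between an H2A and an H2B gene that start in opposite directions and so counted for both. The octamers of 2 such pairs and that of H2BC12 are printed with 8 bases on either side, on the coding strand of the named gene, with the octamer or its reverse complement in capitals. H2BC12 is at chr6:27146889-27146912 (minus), H2BC11 and H2AC11 share chr6:27132827-27132850 and H2BC4 and H2AC6 share chr6:26124034-26124057.
H2BC12: ttcaccttATTTGCATgagaggtc
H2BC11: ttcaccttATTTGCATaagcgatt
H2AC11: aatcgcttATGCAAATaaggtgaa
H2BC4: catacctcATTTGCATagctctgc
H2AC6: gcagagctATGCAAATgaggtatg

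Genes with an octamer did not have the higher median level. Among H2B genes, the median of the mean TPM over the 52 samples was 0.543 for the 14 genes with an octamer and 1.42 for the 4 without one, and H2BC5, the H2B gene with the second highest level, had none. The H2B gene of a shared octamer had the higher mean TPM in 2 of the 8 pairs. These were H2BC11, at 10.1 TPM beside 1.92 for H2AC11, and H2BC1, at 0.0169 beside 0.00212 for H2AC1. H2BC4 had a mean of 4.56 TPM beside 21.9 for its neighbour H2AC6.

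A few genes made up most of the histone RNA measured. TPM is a level scaled by transcript length and by library size, so it can be compared between genes. Of the 69 members, 9 had a mean of at least 10 TPM over the 52 samples, 28 of at least 1 TPM and 41 less than 1 TPM. No count at all was assigned to 5 members, and 9 never exceeded 1 count in any sample. With libraries of 25310443 to 72003442 gene-level counts, members summed to between 2742 and 40706 counts per sample. H2BC12, an H2B gene, had a mean of 199 TPM, followed by the linker histone gene H1-2 at 70.4, H2BC5 at 33.1 and H2AC6 at 21.9. The next 6 were the H2A genes H2AC19 (17.9 TPM), H2AC18 (14.4) and H2AC25 (13.4), H4C11 (13.4), H2BC11 (10.1) and H4C14 (5.67). H2BC12 was the highest member in 44 of the 52 samples.

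**Figure D1:**
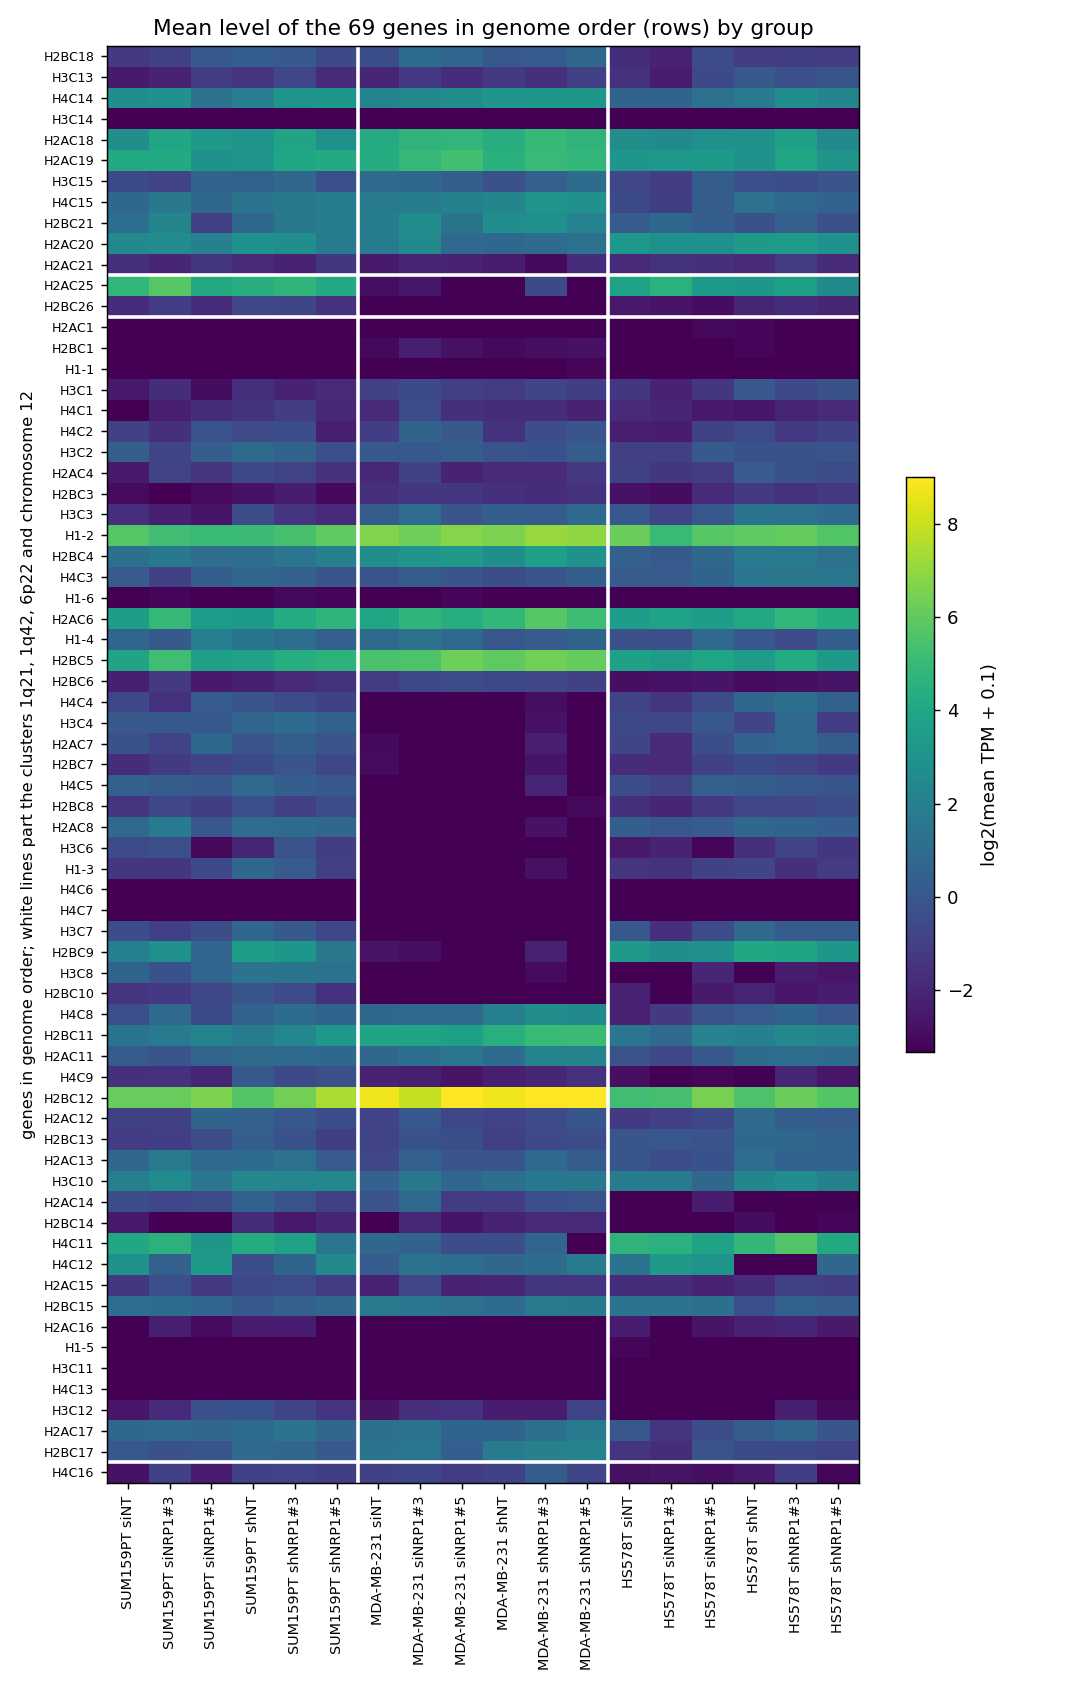
Mean level of each of the 69 members (rows, in genome order) in each of the 18 groups (columns), coloured by log2(mean TPM + 0.1). White lines part the 3 cell lines and the clusters. H2BC12 is the brightest row in MDA-MB-231, and a run of 15 neighbouring rows from H4C4 to H2BC10 is dark in that line. Of these rows, H4C6 and H4C7 are dark in every line.

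H3 and H4 genes encode nearly invariant core histones from many copies. H3 genes contributed little in every line, and H4 genes little in MDA-MB-231 only. The 13 H3 genes encode 2 distinct proteins and the 15 H4 genes 2, against 14 for the 18 H2B genes and 11 for the 17 H2A genes. H3 genes summed to 12.5 TPM in SUM159PT, 7.01 TPM in MDA-MB-231 and 9.71 TPM in HS578T, or 3.96%, 0.902% and 3.75% of the histone sum. H4 genes summed to 33.5, 21.9 and 38.8 TPM, or 10.7%, 2.82% and 15.0%. H2B genes summed to 134, 544 and 90.7 TPM, or 42.5%, 69.9% and 35.01%. H1 genes made up 14.8%, 14.2% and 22.3%, nearly all of it H1-2, while H1-1, H1-5 and H1-6 were at or near 0. For comparison, 10 histone genes outside the set, H2AX, which has a stem-loop as well, and 9 replacement or linker variants such as H2AZ1, H3-3B, H3-3A and MACROH2A1, were summed. This sum had group means between 1160 and 2863 TPM, against 206 to 956 TPM for the 69 members.

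Most of the signal was assigned to transcripts annotated to end at the stem-loop. Of 116 annotated transcripts of the members, 68 end within 50 bases of it, 34 run past it or splice around it and 14 were not in the annotation release used here. Transcripts that end at the stem-loop held 64.1% of the members' TPM in SUM159PT, 68.2% of it in MDA-MB-231 and 75.4% in HS578T (means over 17, 18 and 17 samples). Transcripts past the stem-loop held 22.4%, 12.2% and 13.7%, with single samples between 8.92% and 39.3%. The 14 transcripts outside the release held 13.6%, 19.6% and 10.9%, up to 24.1% in a sample, and could belong to either class. In MDA-MB-231 their share exceeded that past the stem-loop. They took in 53.1 TPM of the mean of H2BC12 and all of that of H2AC19. The split is an estimate over overlapping transcripts and is bounded by which transcripts are annotated. H2BC12 and H1-2, together 42.6%, 70.1% and 43.2% of the histone sum in the same order of lines, had no classified transcript past the stem-loop. RNA of these genes that runs past it could not be counted as such. The shares therefore do not show which RNA ends passed the enrichment. H2AC25 was assigned wholly to a transcript that runs past the stem-loop in every siNT sample with reads. H2BC5 was split, and in siNT 70.8% ± 13.9 of it was past the stem-loop in SUM159PT, 64.5% ± 6.57 in the MDA-MB-231 line and 26.6% ± 5.39 for HS578T (SD, n = 3 each).

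The summed TPM of the members was highest in MDA-MB-231. In the siNT samples it ranged from 676 to 723 in MDA-MB-231, 201 to 339 in SUM159PT and 226 to 263 in HS578T. In the shNT samples it was 546 to 854, 202 to 284 and 253 to 294. MDA-MB-231 thus did not overlap either of the other lines, whereas SUM159PT and HS578T overlapped in both control groups. The lowest sum of all samples, 121 TPM, was SUM159PT siNRP1#5 replicate 2, and the other sample of that group had 389 TPM. In these bulk samples, fewer cells in S phase and less histone RNA per cell cannot be told apart.

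**Figure D2:**
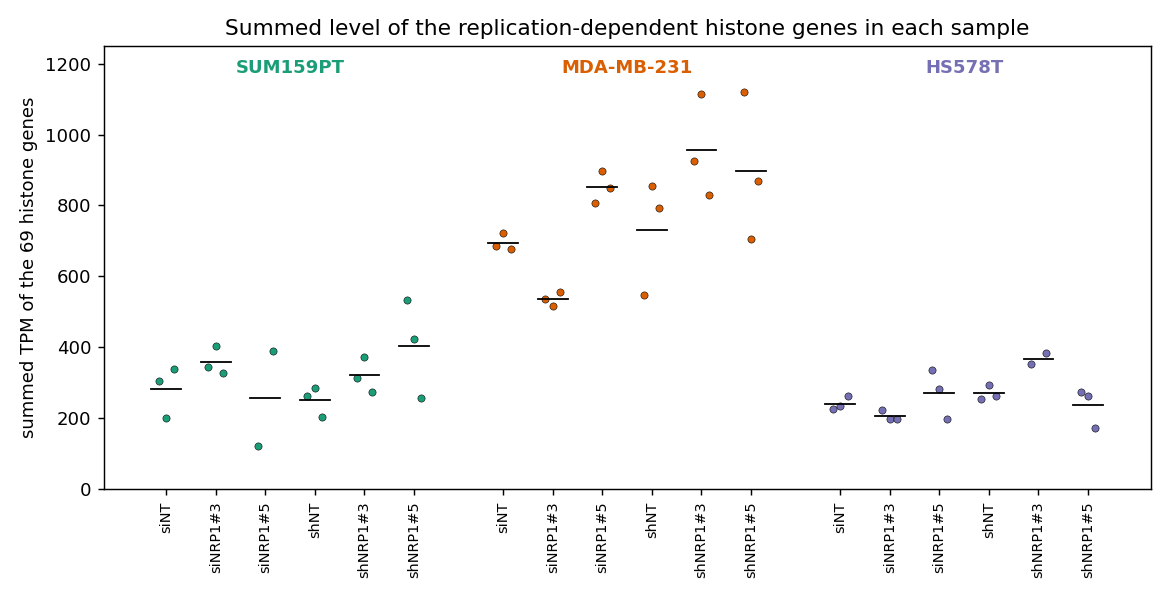
Summed TPM of the 69 members in each of the 52 samples (points) with the group means (horizontal lines), by cell line and treatment group. All 18 MDA-MB-231 samples lie at 516 TPM or above, and the 2 samples of SUM159PT siNRP1#5 lie far apart, at 121 and 389 TPM.

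H2BC12 differed between the lines as well. In siNT it was at 437, 454 and 399 TPM in MDA-MB-231, against 69.2, 53.8 and 86.2 in SUM159PT and 34.8, 31.6 and 45.6 in HS578T. In shNT it was at 313, 498 and 462 TPM in MDA-MB-231, 59.9, 54.2 and 44.5 in SUM159PT and 50.0, 43.7 and 45.3 in HS578T. Every MDA-MB-231 control was above every control of the other lines. Over the siNT and shNT controls together, H2BC12 was lower in SUM159PT than in MDA-MB-231 by a log2 fold change of -2.46 (SE 0.23, adjusted p = 2.38e-12) and in HS578T by -2.50 (SE 0.23, adjusted p = 1.06e-12). These and all adjusted p-values below were obtained with the quasi-likelihood test of edgeR and are adjusted (Benjamini-Hochberg) over all genes tested in that comparison.

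Across the family, 24 of the 54 members tested were higher in SUM159PT than in MDA-MB-231 and 13 lower, beside 31.8% of all genes higher and 27.6% lower. In HS578T, 25 members were higher than in MDA-MB-231 and 13 lower (34.9% and 35.4% of all genes), and against SUM159PT 10 were higher and 14 lower (29.8% and 33.7%). The median log2 fold change of the members was 1.01 for SUM159PT and 0.37 for HS578T against MDA-MB-231, beside 0.06 and -0.00 for all genes tested, and -0.13 for HS578T against SUM159PT, beside -0.09. Of the members higher than in MDA-MB-231, 13 of the 24 and 12 of the 25 lie in 1 run of neighbours described below. None of that run passed the filter on low counts in MDA-MB-231 itself, so its members entered these comparisons through the lines where they are high, as did H2AC25 and H2BC26. Their direction was thereby set, and nothing about the family is read from these counts and medians. The other members higher in MDA-MB-231 than in both lines included H2BC5 (log2 fold change -1.57 in SUM159PT and -1.69 in HS578T, SE 0.25 each) and H2BC11 (-1.87 and -1.67, SE 0.35 each). H1-2 was lower in SUM159PT than in MDA-MB-231 (-0.89, SE 0.24) and higher in HS578T than in SUM159PT (1.10, SE 0.25), and no difference was called between HS578T and MDA-MB-231. H4C14 was lower in HS578T than in either other line (-1.06 and -0.96, SE 0.29 each).

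A contiguous run of 15 members on chromosome 6 was almost without reads in MDA-MB-231. The run spans 84703 bases from H4C4 to H2BC10 (chr6:26188710-26273412, GRCh38) and holds genes of all 5 families, among them the linker histone gene H1-3, H2BC9 and H3C4. Its members H4C6 and H4C7 had no counts in any of the 52 samples, so their absence is not particular to MDA-MB-231. Together the 15 genes had 0 counts in 11 of the 18 MDA-MB-231 samples and at most 1 count in 16 of them. The other 2 had 4 counts (siNT replicate 3) and 23 counts (shNRP1#3 replicate 3). Genes that mark HS578T stood at 0.431% of their own-line level in the first of these samples and at 1.49% in the second, where genes that mark SUM159PT stood at 1.26%, and their part in these counts was not tested. The 17 SUM159PT samples had 42.7 to 447 counts in the run (median 289) and the 17 HS578T samples 88 to 496 (median 238). The genes that flank it, H2BC6 and H4C8, had 792 and 2833 counts over the MDA-MB-231 samples, so they were read there. The 7 genes other than members inside the run, most of them pseudogenes, had 1 count over all MDA-MB-231 samples, 550 over SUM159PT and 402 over HS578T. Of these counts, 446 in SUM159PT and 378 in HS578T came from a protein-coding entry whose span takes in the members H3C4 and H2AC7. H3C5P and H2AC9P, among the pseudogenes, had no counts in any line. RNA alone was measured here, and the state of the DNA in this region was not.

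H2AC25, an H2A gene on chromosome 1 that lies outside this run, was also near 0 in MDA-MB-231. In siNT it was at 33.7, 28.5 and 22.1 TPM in SUM159PT, 14.1, 17.5 and 10.9 in HS578T, and 0, 0 and 0.11 in MDA-MB-231. Over the 6 control samples of each line it had 4359, 1935 and 3 counts, which gives a ratio of 1512 for SUM159PT over MDA-MB-231 (95% counting interval 517 to 7334) and 805 for HS578T (275 to 3906). These intervals cover counting error only. The highest MDA-MB-231 counts of H2AC25, 15 and 29, were in shNRP1#3 replicates 2 and 3. Marker genes of SUM159PT reached 0.412% and 1.26% of their own-line level in these samples, marker genes of HS578T 0.0135% and 1.49%, and their part in the H2AC25 counts was not tested. H2BC26, its neighbour at the same locus, had 0 counts in the MDA-MB-231 controls and 113 in those of SUM159PT, or at least 39.2-fold more when set against the 3 counts that 0 allows over the group.

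Some members were near 0 in HS578T. H3C8, which lies in the run near 0 in MDA-MB-231, had 162 counts in the SUM159PT controls and 0 in those of HS578T, at least 45.0-fold fewer. H2AC14 had 79.5 and 0, at least 22.1-fold fewer, and H3C12 38 and 0, at least 10.6-fold fewer. In the other direction, H3C1 and H3C3 were higher in HS578T than in SUM159PT, by log2 fold changes of 2.69 (SE 0.46) and 2.42 (SE 0.47).

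Some members cannot be told apart by their coding sequence. H2AC18 and H2AC19, H3C14 and H3C15, H4C11 and H4C12, and H4C14 and H4C15 share an identical coding sequence within each pair, so reads in it are split between the copies by the authors' quantification. The split of H4C11 and H4C12 varied between replicates. In HS578T siNRP1#3, H4C12 was assigned 23.6, 0 and 6.08 TPM beside 21.1, 32.2 and 17.5 for H4C11, so the sums were 44.7, 32.2 and 23.6. In SUM159PT shNRP1#5, H4C11 was assigned 0, 3.07 and 5.16 TPM beside 10.5, 5.23 and 1.92 for H4C12. Levels and calls of a single copy of these pairs are therefore uncertain, those of H4C11 and H4C12 most of all.

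NRP1, the targeted gene, was called lower in 11 of the 12 knockdown contrasts, with log2 fold changes from -4.88 to -0.70. The exception by call was HS578T shNRP1#3 (-1.59, adjusted p = 0.069). Each siRNA was compared with siNT and each shRNA with shNT of the same line. The siRNA contrasts of a line share their siNT samples and the shRNA contrasts their shNT samples, so contrasts that share controls are given side by side and not counted together. After a filter on low counts, 49 members were tested in SUM159PT, 34 members in MDA-MB-231 and 43 in HS578T, and 15 in no line. Of the 15 members of the run near 0 in MDA-MB-231, 12 were tested in SUM159PT, 9 in HS578T and 0 in MDA-MB-231.

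**Figure D3:**
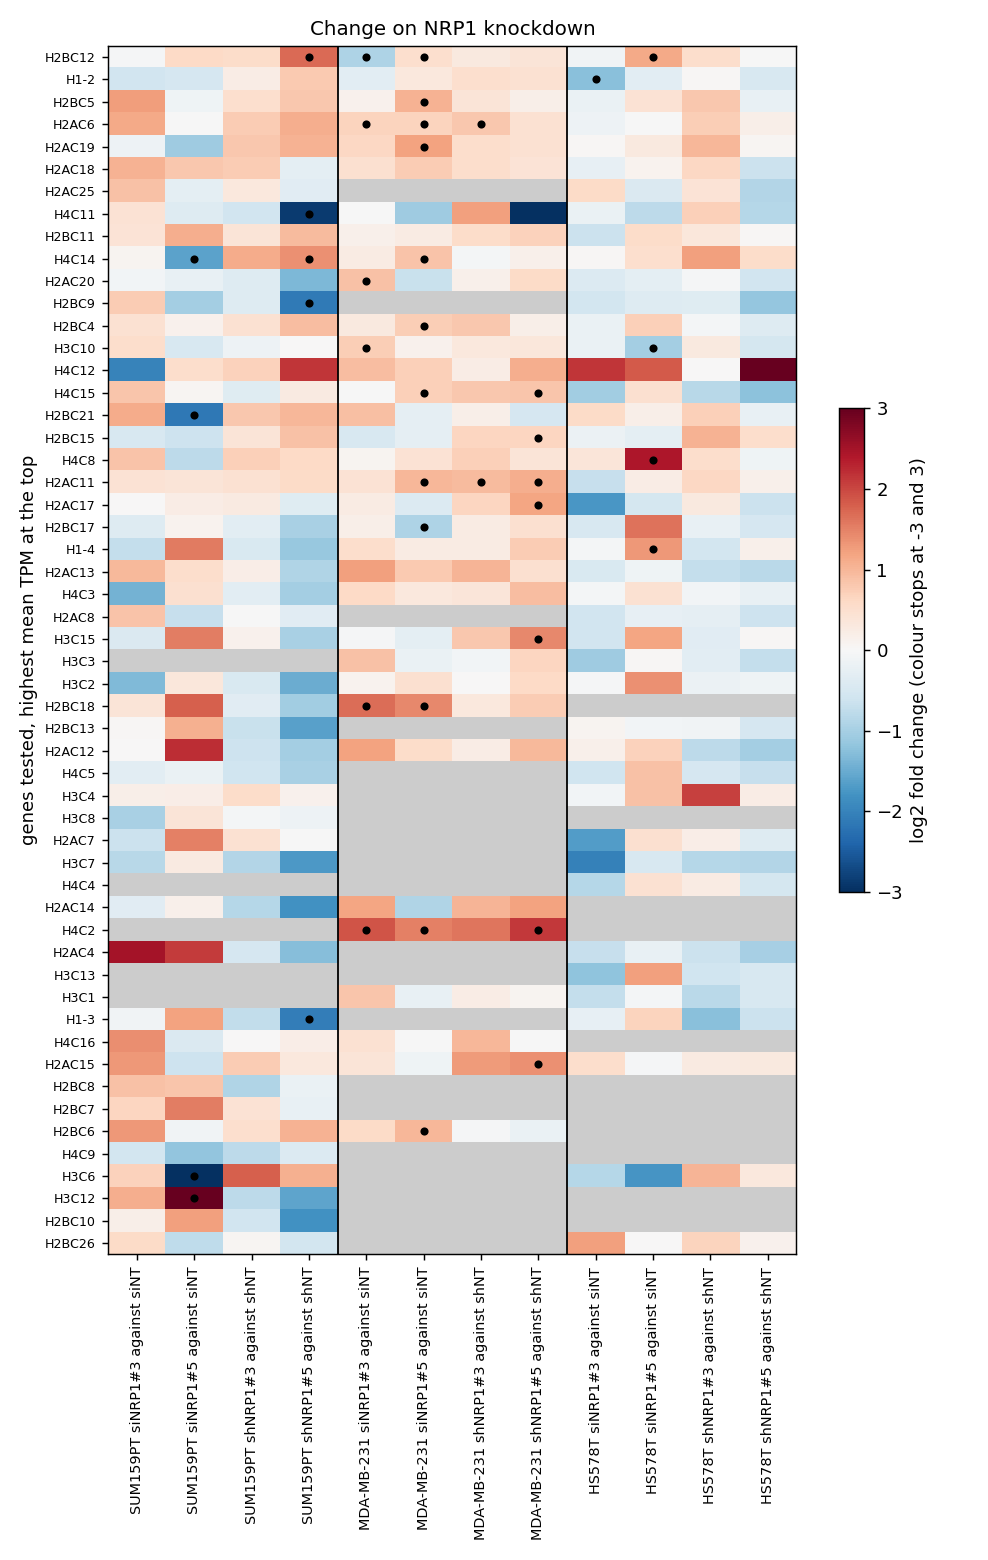
Log2 fold change of each member tested in at least 1 line (rows, highest mean TPM at the top) in the 12 knockdown contrasts (columns). Colours stop at -3 and 3, grey cells were not tested in that line and dots mark an adjusted p under 0.05. Dots are most frequent in the 4 MDA-MB-231 columns.

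In MDA-MB-231, several H2A and H2B genes rose upon knockdown of NRP1. With siNRP1#5, 11 of 34 members rose and 1 fell, or 32.4% and 2.94%, beside 14.4% and 14.9% of all genes. With siNRP1#3, 5 rose and 1 fell (14.7% and 2.94%, beside 11.4% and 14.3%). With shNRP1#5, 7 rose and none fell (20.6%, beside 8.79% of genes higher and 11.9% lower), and with shNRP1#3, 2 rose and none fell (5.88%, beside 1.46% and 2.19%). At an unadjusted p under 0.05, 0 members were lower in both shRNA contrasts. The median log2 fold changes of the members were 0.37, 0.46, 0.53 and 0.52 in the order given, beside 0.01, -0.01, 0.02 and 0.02 for all genes. These counts depended on the fit and on single samples. In a fit of the 2 groups alone, siNRP1#5 had 2 calls in place of 12, and the 2 of shNRP1#3 became 4 in such a fit or with DESeq2 and 5 with no filter on low counts. The 12 calls of siNRP1#5 became 3, 5 and 7 without siNT replicate 1, 2 or 3 and 7 without siNRP1#5 replicate 3. The 6 calls of siNRP1#3 became 2 without siNRP1#3 replicate 1, the 7 of shNRP1#5 became 3 without shNRP1#5 replicate 1 and 4 without its replicate 3 or without shNT replicate 1 or 3, and the 2 of shNRP1#3 became 0 without shNT replicate 3 and 1 without shNT replicate 1 or 2 or without shNRP1#3 replicate 2.

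H2AC11, an H2A gene, rose with siNRP1#5 and shNRP1#5 and with shNRP1#3. The #5 reagents share the same sequence and so are not independent of each other. With siNRP1#5 it was at 2.76, 3.00 and 2.55 TPM against 1.28, 1.45 and 1.95 in siNT, with no overlap (log2 fold change 0.99, SE 0.20, adjusted p = 0.00118). With shNRP1#5 it was at 5.24, 4.34 and 3.91 TPM against 2.07, 1.80 and 1.70 in shNT (1.10, SE 0.20, adjusted p = 7.83e-04). These samples again lay apart from their controls, and both calls held in all 13 alternatives tried. With shNRP1#3 it was at 5.96, 4.80 and 2.79 TPM, all above shNT (0.95, SE 0.20, adjusted p = 0.00916), and 12 of 13 alternatives kept the call. With siNRP1#3 it was at 2.15, 2.15 and 2.52 TPM, above siNT, and was not called.

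H2BC5 rose with siNRP1#5, from 38.4, 44.4 and 50.4 TPM in siNT to 80.4, 73.9 and 79.5 (log2 fold change 1.04, SE 0.21, adjusted p = 8.12e-04). All 3 knockdown samples were above all 3 controls, and the call held in all 13 alternatives. H2AC6, whose product is a canonical H2A, was at 13.5, 16.9 and 14.5 TPM in siNT. It was at 25.8, 23.0 and 32.3 TPM with siNRP1#3 and at 18.7, 20.1 and 23.2 with siNRP1#5, each above the controls. The fold changes were 0.68 in both (SE 0.20 each, adjusted p = 0.0187 and 0.0156), and 11 and 10 of 13 alternatives kept these calls. H2AC6 also rose with shNRP1#3, from 22.8, 30.4 and 31.0 TPM in shNT to 73.1, 54.4 and 40.5 (0.80, SE 0.20, adjusted p = 0.0273), a call that 8 of 13 alternatives kept.

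H2BC12 moved in opposite directions with the siRNAs in MDA-MB-231. With siNRP1#3 it was at 241, 241 and 246 TPM, below the siNT values of 399 to 454 (log2 fold change -0.92, SE 0.17, adjusted p = 6.80e-04), and the call held in all 13 alternatives. With siNRP1#5 it was at 517, 591 and 430 TPM, which overlaps siNT (0.50, SE 0.17, adjusted p = 0.0326), and 8 of 13 alternatives kept that call. With shNRP1#3 it was at 460.1, 603 and 449 TPM and with shNRP1#5 at 627, 381 and 508, against 313, 498 and 462 in shNT, and neither was called. H2BC12 made up 56.1% of the histone sum in this line. The sum with siNRP1#3 was 516 to 555 TPM against 676 to 723 in siNT, a log2 ratio of group means of -0.38. Without H2BC12, the mean sum was 293 TPM with siNRP1#3 and 265 in siNT.

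The other calls in MDA-MB-231 were of genes with fewer reads. H4C2 was higher with siNRP1#3 (log2 fold change 1.89), siNRP1#5 (1.51) and shNRP1#5 (2.12), but its level was 0.19 to 0.57 TPM in the controls and 0.60 to 2.16 TPM in these groups. Of 12 alternatives, 11, 7 and 12 kept these calls. H2BC18 rose with siNRP1#3, from 1.06, 0.61 and 0.35 TPM to 2.26, 1.90 and 1.65 (1.67, SE 0.43, adjusted p = 0.00806), in all 13 alternatives, and with siNRP1#5 was at 2.75, 0.93 and 0.83 (1.43, SE 0.44), in 10 of 13. H2AC20 and H3C10 rose with siNRP1#3 by 0.88 and 0.74, calls that 8 and 4 of 13 alternatives kept. H2AC17 rose with shNRP1#5 from 1.25, 1.49 and 1.60 TPM to 3.39, 2.52 and 3.54 (1.18, SE 0.29, adjusted p = 0.00727), again in all 13 alternatives. H3C15, H2AC15, H4C15 and H2BC15 rose in the same contrast by 1.44, 1.37, 0.83 and 0.65, calls kept in 6 of 12, 8 of 13, 9 of 13 and 5 of 13 alternatives. With siNRP1#5, H2AC19 (1.20), H2BC6 (1.00), H4C14 (0.86), H2BC4 (0.73) and H4C15 (0.72) rose, and H2BC17, from 2.67, 2.14 and 2.97 TPM to 1.19, 0.93 and 1.37, was the one member that fell (-0.92, SE 0.30, adjusted p = 0.0242). Alternatives kept the call of H2BC17 in 6 of 13 cases, those of H2AC19 and H4C14 in 6 and 7 of 12, and those of H2BC6, H2BC4 and H4C15 in 9, 9 and 7 of 13. Summed with its identical copy H2AC18, H2AC19 was at 43.5, 50.2 and 103 TPM against 32.0, 37.5 and 46.8 in siNT, which overlaps. H4C14 and H4C15 summed to 10.4, 8.94 and 12.9 TPM against 7.23, 7.83 and 8.67, without overlap.

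**Figure D4:**
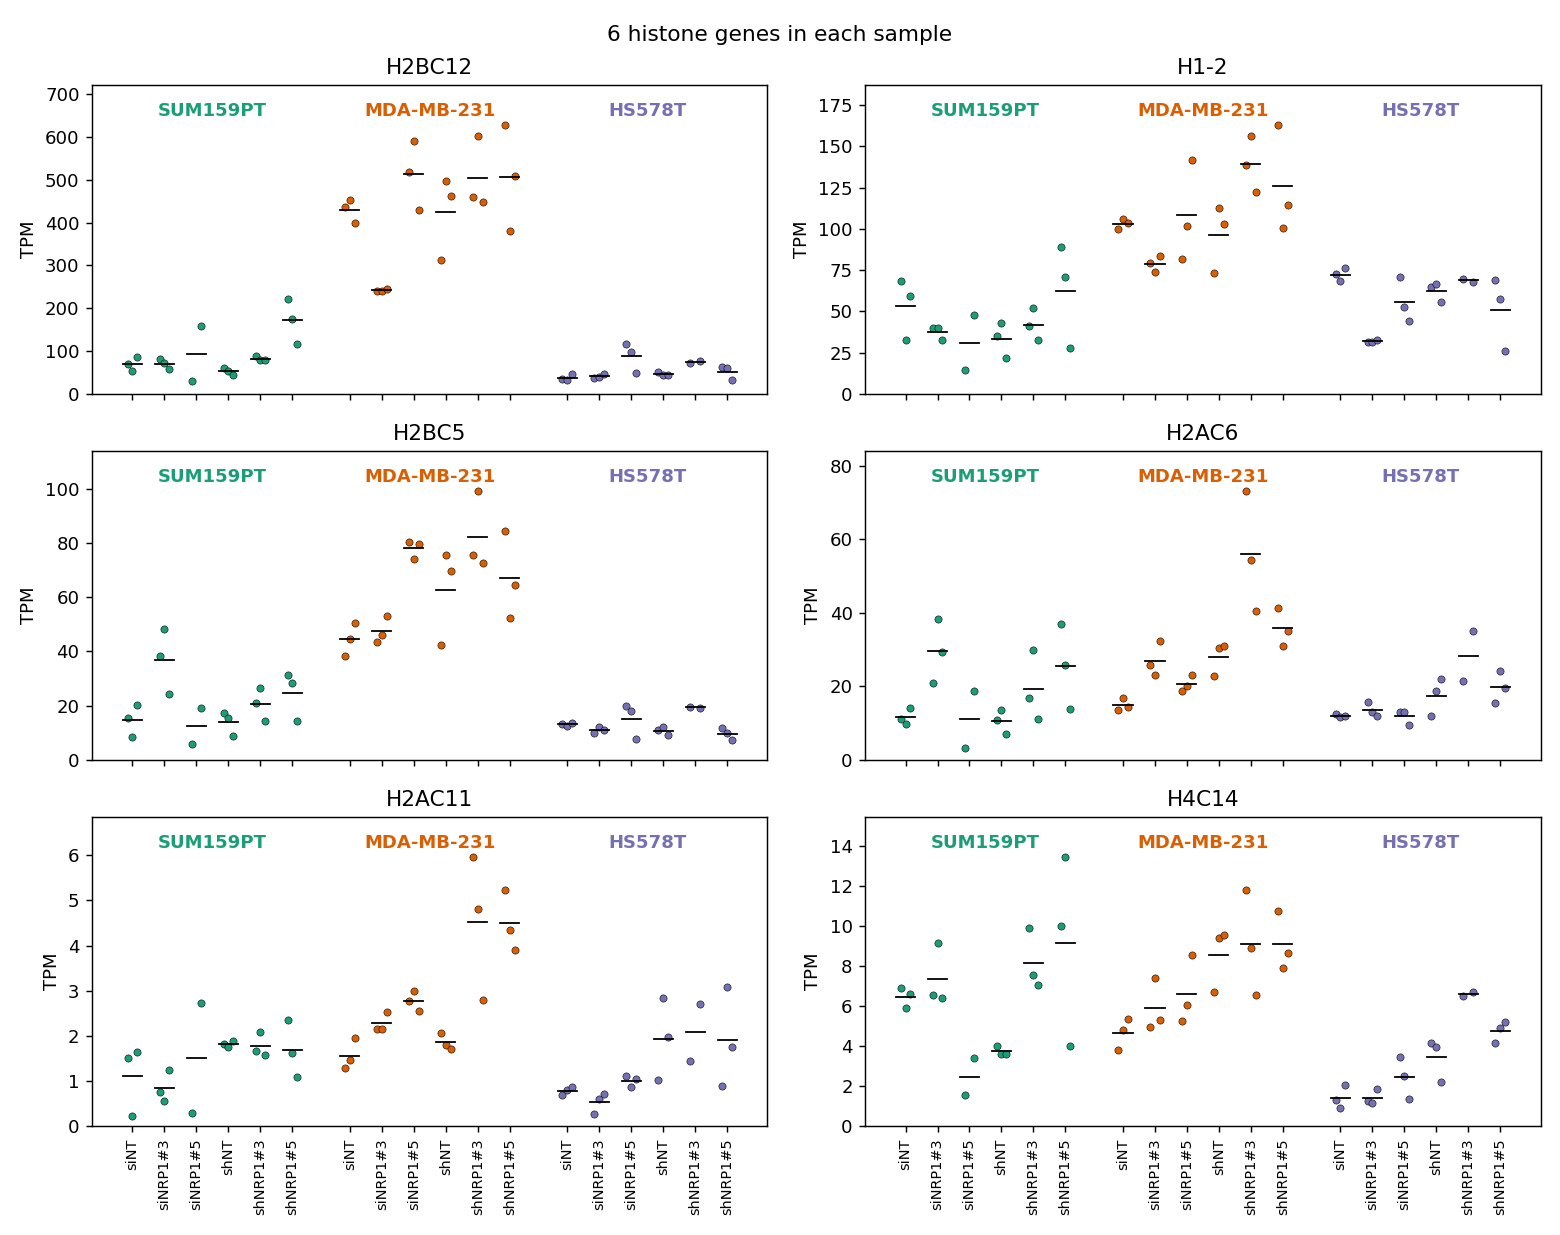
TPM per sample (points) and group mean (horizontal lines) of H2BC12, H1-2, H2BC5, H2AC6, H2AC11 and H4C14 in the 18 groups, 1 panel per gene, each with its own axis from 0. In MDA-MB-231 every H2AC11 sample of siNRP1#5, shNRP1#3 and shNRP1#5 lies above its controls, and H2BC12 in siNRP1#3 lies below siNT.

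In SUM159PT, few members changed. With siNRP1#3 none of 49 was called in either direction (3.16% of genes higher and 5.5% lower), while 6 were higher and 2 lower at an unadjusted p under 0.05 and DESeq2 called 2. The replicate numbers paired the samples of this contrast, and with the replicate as a block 1 member was higher. With shNRP1#3 none was called (0.339% and 1.06% of genes), with 2 higher and 0 lower at an unadjusted p under 0.05 and 1 called by DESeq2. With siNRP1#5 1 member rose and 3 fell (9% and 8.89% of genes), and with shNRP1#5 2 rose and 3 fell (3.24% and 2.7%). The medians over the 49 members were 0.38, 0.05, 0.15 and -0.29 in the order given, against -0.01, 0.03, 0.01 and 0.03 for all genes. The 4 calls of siNRP1#5 became 2 without siNT replicate 1, 7 without siNT replicate 3 and 0 in a fit of the 2 groups alone. The 5 of shNRP1#5 became 3 without shNRP1#5 replicate 3, 1 without its replicate 1 or shNT replicate 3, and 0 without its replicate 2 or shNT replicate 1 or 2.

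With shNRP1#5, H2BC12 rose in SUM159PT to 222, 176 and 116 TPM, each above the shNT values of 59.9, 54.2 and 44.5 (log2 fold change 1.69, SE 0.38, adjusted p = 0.015). H4C14, an H4 gene on chromosome 1, was at 10.0, 13.5 and 4.02 TPM against 4, 3.59 and 3.62 (1.37, SE 0.38, adjusted p = 0.0421). The highest shNT value of H4C14 is just under the lowest knockdown value. H2BC9 fell from 10.3, 11.8 and 12.7 TPM to 3.51, 2.86 and 2.08 (-2.11, SE 0.60, adjusted p = 0.047) and H1-3 from 1.75, 1.88 and 1.22 to 0.50, 0.46 and 0.25 (-2.08, SE 0.59, adjusted p = 0.0445). Both lie in the run that was near 0 in MDA-MB-231. H4C11 was called lower by -2.87, and by -1.25 once summed with its identical copy H4C12 (adjusted p = 0.0397). Of 13 alternatives, 8 kept the call of H2BC12, 7 those of H2BC9 and H1-3 and 9 that of H4C11, and 6 of 12 that of H4C14.

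With siNRP1#5, for which SUM159PT has 2 samples, H2BC12 was at 29.0 and 159 TPM, on either side of siNT, and was not called. H2BC21 fell from 2.14, 1.69 and 2.53 TPM to 0.16 and 0.64 (log2 fold change -2.14, SE 0.52, adjusted p = 0.0106). H4C14 fell from 6.89, 5.90 and 6.58 TPM to 1.52 and 3.38 (-1.59, SE 0.45, adjusted p = 0.0221), a direction opposite to that with shNRP1#5. H3C6 had 40, 29 and 29 counts in siNT and 3 in each siNRP1#5 sample (-3.32, SE 0.70, adjusted p = 0.00505). The call of H3C12 (3.47) rests on 25 counts in replicate 3, since the other samples had 1 or 2. Of 12 alternatives, 10 kept the call of H2BC21 and 11 that of H3C6, and 7 of 11 those of H4C14 and H3C12.

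In HS578T, the calls were few, and the siRNA samples held reads of genes that mark another line. With siNRP1#3 none of 43 members rose and 1 fell (2.31% and 2.34% of genes), and with siNRP1#5 3 rose and 1 fell (10.1% and 8.53%). With shNRP1#3 and shNRP1#5 none was called, beside 0.00509% and 0.275% of genes higher and 0.0305% and 0.671% lower. At an unadjusted p under 0.05, shNRP1#3 had 5 higher and 0 lower and shNRP1#5 had 0 higher and 3 lower, and DESeq2 called 1 in each. The medians over the members were -0.24, 0.23, 0.03 and -0.48, against 0.03, 0.03, 0.00 and 0.00 for all genes. Markers of MDA-MB-231 (17 genes with a mean of at most 0.5 CPM, a count scaled to library size, in the controls of each other line and at least 20 in its own) stood at 24.0%, 16.5% and 13.1% of the level they have there in HS578T siNRP1#5 replicates 1, 2 and 3, 2.04%, 2.92% and 6.79% in siNRP1#3 and 0.601% to 2.06% in siNT. Markers of SUM159PT stood at 5.54% in siNRP1#5 replicate 2.

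H1-2 fell with siNRP1#3 in HS578T, from 72.5, 68.2 and 76.0 TPM in siNT to 31.5, 31.4 and 32.6 (log2 fold change -1.25, SE 0.33, adjusted p = 0.037). The groups lay far apart, with replicates close together in both. Once the reads assigned to other lines were subtracted, the fold change was -1.30 with an adjusted p of 0.0534, and it lost the call without any 1 of 5 of the 6 samples.

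H2BC12 in HS578T siNRP1#5 was at 118, 98.2 and 50.0 TPM against 34.8, 31.6 and 45.6 in siNT, with no overlap (1.13, SE 0.29, adjusted p = 0.014). After subtraction of the reads of other lines the fold change was 0.60 with an adjusted p of 0.255. H4C8 was at 0.69, 1.11 and 0.53 TPM against 0.21, 0.09 and 0.06 (2.42, SE 0.47, adjusted p = 0.0027), and after subtraction 1.87 with an adjusted p of 0.063. H3C10 was called lower (-1.02) before subtraction and not after (-0.93, adjusted p = 0.0965). Of 13 alternatives, 9 kept the call of H2BC12, 12 that of H4C8 and 6 that of H3C10. H1-4, a linker histone gene, was at 1.66, 1.98 and 1.71 TPM against 0.70, 0.39 and 1.14 (1.303, SE 0.42, adjusted p = 0.0396), and was the call of this contrast left after subtraction (1.52, adjusted p = 0.0343), though 6 of 13 alternatives in all kept it. The 4 calls became 2 without any 1 of the 3 knockdown samples and 1 without siNT replicate 1 or 2.

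**Figure D5:**
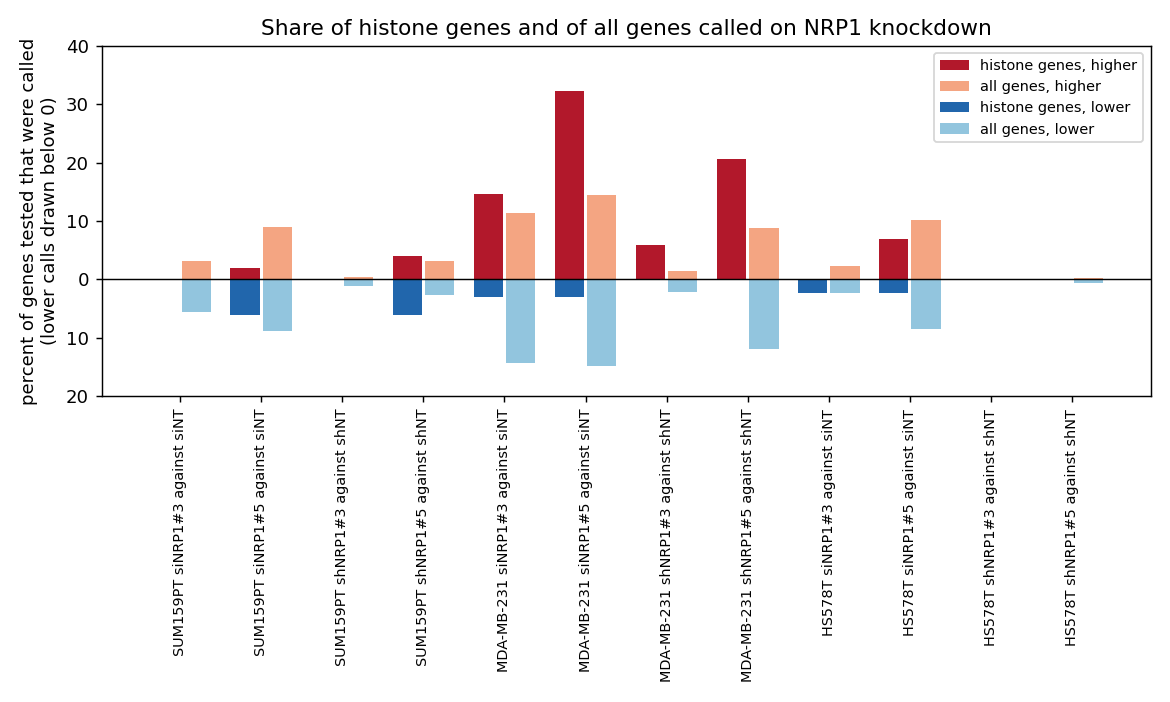
Percentage of tested members called higher (drawn above 0) or lower (drawn below 0) in the 12 knockdown contrasts, in dark bars, beside the percentage of all genes tested, in light bars. In MDA-MB-231 the dark bars for higher calls exceed the light ones, most of all with siNRP1#5, at 32.4% against 14.4%.

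The non-targeting controls themselves differed between delivery by lentivirus and by transfection. Delivery, selection and time differ at once between shNT and siNT and cannot be told apart. In HS578T, 5 of 43 members were higher in shNT and 1 lower (9.14% and 8.8% of genes), and 36 of 43 had a positive log2 fold change, with a median of 0.70 against -0.00 for all genes. In SUM159PT, 2 of 49 were higher and 3 lower (5.96% and 8.45%, median 0.36 against -0.03), and in MDA-MB-231 3 of 34 were higher and 4 lower (10.7% and 9.85%, median -0.05 against -0.01). The 6 calls of HS578T became 1 without shNT replicate 2 and 2 without shNT replicate 3 or siNT replicate 1 or 2, and 3 once the reads of other lines were subtracted. The 7 of MDA-MB-231 became 4 without shNT replicate 1 or 3 or siNT replicate 1 or 2. The 5 of SUM159PT became 10 without siNT replicate 3, 2 without shNT replicate 2, 1 without siNT replicate 2 and 0 without shNT replicate 1 or 3 or siNT replicate 1.

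H4C8, an H4 gene next to that run, was higher in shNT in MDA-MB-231 and HS578T. In MDA-MB-231 it was at 3.63, 4.09 and 4.07 TPM against 1.71, 2.05 and 1.11 in siNT (log2 fold change 1.43, SE 0.26, adjusted p = 7.84e-04). In HS578T it was at 0.78, 1.29 and 1.07 TPM against 0.21, 0.09 and 0.06 (2.75, SE 0.47, adjusted p = 0.00164). Neither pair of groups overlapped, and both calls held in all 13 alternatives. H2AC6 in MDA-MB-231 was at 22.8, 30.4 and 31.0 TPM in shNT against 13.5 to 16.9 in siNT (0.79, SE 0.20, adjusted p = 0.00922), and H2AC20 was lower, at 1.18, 1.72 and 2.16 TPM against 3.85, 3.13 and 3.13 (-1.17, SE 0.30, adjusted p = 0.00852). Both held in all 13 alternatives. H2BC11 was higher there by 0.76, and H1-4 (-1.09), H3C15 (-1.46) and H2BC15 (-0.69) were lower. Alternatives kept the call of H2BC11 in 7 of 13 cases, of H1-4 in 12 of 13 and of H3C15 in 7 of 12.

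H2BC15 was lower in shNT in every line. In SUM159PT the log2 fold change was -1.56 (SE 0.42, adjusted p = 0.0241), in MDA-MB-231 -0.69 (SE 0.23, adjusted p = 0.0382) and in HS578T, where it went from 2.36, 2.55 and 2.63 TPM to 1.12, 0.71 and 0.31, -1.82 (SE 0.60, adjusted p = 0.045). Alternatives kept 9, 7 and 7 of 13 of these calls. In HS578T, H2AC12 (2.37), H3C6 (1.56), H2BC4 (1.27) and H2AC13 (1.20) were higher in shNT, calls that 12, 5, 6 and 5 of 13 alternatives kept. In SUM159PT, H1-3 (2.31) and H3C12 (3.08, from 1 count to 11 to 13 per sample) were higher and H4C14 (-1.24) and H4C12 (-2.79) lower, the last as 1 of 2 identical copies. Of these, H1-3 was kept in 9 of 13 alternatives, H3C12 in 6 of 12 and H4C14 and H4C12 in 7 of 12.

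Whether a member changed differently between the 3 lines was tested directly. For siNRP1#5, 4 of 54 members differed (18.2% of genes), namely H4C8, H4C14, H2BC17 and H2BC21. For shNRP1#5, 2 differed (3.81%), H2BC12 and H4C2. For H2BC12 the log2 fold changes were 1.69 (SE 0.38) for SUM159PT, 0.40 (SE 0.17) for MDA-MB-231 and -0.01 (SE 0.29) for HS578T. For shNRP1#3 1 was called (0.747%), H2AC25, whose fold changes in SUM159PT and HS578T were alike (0.32 and 0.40), so the call rests on MDA-MB-231, where it has the few counts described above, and for siNRP1#3 none (3.42%), with 5 at an unadjusted p under 0.05. For shNT against siNT 3 differed (13.9%), H4C8, H3C6 and H4C14. For siNRP1#5 and for shNT the share of members that differed was below that of all genes. Leaving out replicate 1, 2 or 3 of every group changed the counts for siNRP1#5 to 1, 0 and 7, those for shNRP1#5 to 0, 0 and 1 and that for shNRP1#3 to 0 each time, and without replicate 1 or 2 that for shNT became 0 and 1.

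Genes that act on histone mRNA or histone transcription were examined beside the members. SLBP was called higher with siNRP1#5 in SUM159PT (log2 fold change 0.87, SE 0.28, adjusted p = 0.0403) and in HS578T (0.78, SE 0.17, adjusted p = 0.00475), and in HS578T no longer after subtraction of reads of other lines (0.54, adjusted p = 0.0536). ERI1, an exonuclease that trims the histone stem-loop, was higher with siNRP1#5 in SUM159PT (0.96, SE 0.29) and in shNT against siNT of that line (1.02, SE 0.26). HINFP, an activator of H4 gene transcription, was higher with siNRP1#5 in SUM159PT (0.89, SE 0.22) and MDA-MB-231 (0.70, SE 0.15) and in shNT of MDA-MB-231 (0.42, SE 0.15). With siNRP1#5 in SUM159PT, 8, 8 and 10 of 12 alternatives kept the calls of SLBP, ERI1 and HINFP. The siNRP1#5 calls of SLBP in HS578T and of HINFP in MDA-MB-231 were each kept in 12 of 13. Those of ERI1 and HINFP in shNT were kept in 8 and 7 of 13. NPAT, a co-activator of histone genes, and CASP8AP2, also required for histone expression, were called in none of the 15 contrasts within a line. Of 23 genes for histone mRNA processing, 6 rose with siNRP1#5 in SUM159PT (26.1%), beside 9% of all genes, and 5 were higher in shNT of that line (21.7%, beside 5.96%). With siNRP1#5 in HS578T 4 rose (17.4%, beside 10.1%) and 1 fell, and in the other knockdown contrasts 0 to 3 rose and 0 to 3 fell.

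Genes of S phase were counted in the same way. Of 35 genes of DNA replication, none rose and 8 fell with siNRP1#5 in MDA-MB-231 (22.9%, beside 14.9% of all genes lower, median log2 fold change -0.12). There 11 of 34 histone members rose and 1 fell (32.4% and 2.94%, beside 14.4% and 14.9% of all genes). In the same line, 2 rose and 3 fell with siNRP1#3 (5.71% and 8.57%, beside 11.4% and 14.3%). With shNRP1#3 1 rose (2.86%, beside 1.46%) and none fell. With shNRP1#5 5 rose (14.3%, beside 8.79%) and 1 fell (2.86%, beside 11.9%). In HS578T, 25 of the 35, or 71.4%, were higher in shNT than in siNT, beside 9.14% of all genes, with a median of 1.45 and beside a median of 0.70 for the histone members. In SUM159PT, 12 of the 35 were higher in shNT (34.3%, beside 5.96%, median 0.99). With siNRP1#5 in SUM159PT, 11 rose (31.4%, beside 9%) and 1 fell (2.86%, beside 8.89%). There 1 of 49 histone members rose and 3 fell (2.04% and 6.12%). In HS578T, 13 rose and 1 fell with siNRP1#5 (37.1% higher, beside 10.1%), in the samples with MDA-MB-231 markers at 13.1% to 24.0%, and their part was not tested. With siNRP1#3 in SUM159PT 6 of the 35 fell (17.1%, beside 5.5%) and none rose, with a median of -0.57. There none of 49 histone members was called in either direction, and their median was 0.38. With siNRP1#3 in HS578T 2 of the 35 fell (5.71%, beside 2.34%) and none rose, with a median of -0.48 beside -0.24 for the histone members.

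RNAs that lack a poly(A) tail were followed as a sign of how far the enrichment let such RNA through. The summed level of 22 such genes, small nuclear and similar RNAs of which 5 had no counts, was 8.76 to 131 CPM per sample. Group means were 91.7 CPM in SUM159PT siNT against 31.8 in shNT, 70.4 in HS578T siNT against 38.6 in shNT, and 15.7 against 15.1 in MDA-MB-231. With siNRP1#3 and siNRP1#5 in MDA-MB-231 they were 23.2 and 22.7 CPM, and with shNRP1#3 and shNRP1#5 14.7 and 11.6. The part of such RNA in the histone values was not tested. Of the markers that define claudin-low cells, VIM was at 1533 CPM or more in every sample and CDH1 at 9.32 CPM or less. ZEB1, SNAI1 and ITGA6 were at 6.96, 0.897 and 10.7 CPM or more. CLDN4, a claudin that is low in claudin-low tumours, was at 62.8 to 298 CPM in MDA-MB-231, and at 48.4 CPM or less in the other lines. That maximum was in HS578T, and the part of MDA-MB-231 RNA in it was not tested. CLDN3 and CLDN7 reached 9.57 and 55.0 CPM, both in MDA-MB-231. Of the receptor genes, ESR1 and PGR stayed at 0.577 CPM or less, while ERBB2 was at 29.2 to 138 CPM.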

How the data were processed

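RNA of 52 samples was sequenced by the authors from stranded, poly(A)-enriched libraries. Per the submitters' processing notes and the study's methods, reads were trimmed with TrimGalore 0.6.5, aligned with STAR 2.7.2b and quantified with RSEM 1.3.3 on GRCh38. The deposited tables used here hold expected counts per gene (94.3% whole numbers) and TPM per gene and per transcript. RSEM divides reads shared by similar copies, so values of near-identical histone genes depend on its estimate.

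Expected counts were rounded and tested with edgeR 4.0.16 (R 4.3.3), by the quasi-likelihood test with TMM scaling, 1 fit per line over its 6 groups and 1 fit over all groups for comparisons of lines and for tests of a difference between lines. A filter on low counts left 20067 genes in SUM159PT, 18800 in MDA-MB-231, 19661 in HS578T and 23416 over all. Benjamini-Hochberg adjustment ran over these genes, and an adjusted p under 0.05 was a call. The code was tested on simulated data. Levels are TPM. Libraries held 25310443 to 72003442 counts. Samples of a group are cultures or passages of 1 cell line, so p-values measure the spread between such samples. No pair of samples agreed within sampling noise.

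Alternatives were no filter on low counts, DESeq2 1.42.0, RLE scaling, a fit of the 2 groups alone, the replicate number as a block, subtraction of reads estimated to come from other lines, identical copies summed, and each replicate left out. Among contrasts with 3 pairs, replicate numbers were taken to pair the samples where every pair's correlation was over 0.1, in 4 contrasts: SUM159PT siNRP1#3 (0.17 to 0.37), SUM159PT shNRP1#3 (0.12 to 0.43), MDA-MB-231 siNRP1#5 (0.30 to 0.39) and HS578T shNRP1#5 (0.24 to 0.67).

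The members and gene lists were chosen with earlier results of these data known. Genes named are the 10 members with the highest mean TPM, up to 5 called members per direction and contrast by size of fold change, members called in the tests between lines, members that share a coding sequence, SLBP, NPAT, CASP8AP2, HINFP, ERI1 and NRP1. Further calls beyond the 5 were added after their values were seen, so that each call within a line is accounted for. Stem-loops were read from GRCh38 with GENCODE 44, and promoters from RefSeq.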

Additional observations from a re-analysis of the deposited data

Results flagged for a closer look

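In all, 10 differences between the cell lines passed the test of the difference itself, edgeR's quasi-likelihood F test with Benjamini-Hochberg adjustment. Of 54 members tested, 4 were called with siNRP1#5, 2 with shNRP1#5, 1 with shNRP1#3, none with siNRP1#3 and 3 for shNT. Of all genes, 18.2%, 3.81%, 0.747%, 3.42% and 13.9% were called, in that order. Leaving out 1 replicate gave 0 to 7, 0 to 1, 0 to 0, 0 to 0 and 0 to 3 member calls. With siNRP1#5, H4C8 had log2 fold changes of -0.78 for SUM159PT, 0.43 for MDA-MB-231 and 2.42 for HS578T (adjusted p = 9.62e-04). H4C14 had -1.59, 0.86 and 0.50 (adjusted p = 0.00897), H2BC17 0.09, -0.92 and 1.63 (adjusted p = 0.0289) and H2BC21 -2.14, -0.26 and 0.18 (adjusted p = 0.0297). H4C14 shares its coding sequence with H4C15, so its values as a single copy are uncertain. The HS578T values of this contrast come from samples in which MDA-MB-231 markers stood at 13.1% to 24.0% of their level in that line, and the part of that RNA in these differences was not tested. With shNRP1#5, H2BC12 had 1.69, 0.40 and -0.01 (adjusted p = 0.0379), and H4C2, tested within MDA-MB-231 alone, had 2.12 there (adjusted p = 0.0288). With shNRP1#3, H2AC25 had 0.32 in SUM159PT and 0.40 in HS578T (adjusted p = 0.0153). These values are alike, so the call rests on MDA-MB-231, where H2AC25 was too low to be tested within the line, and it is no measured difference in response between SUM159PT and HS578T. The 29 counts of H2AC25 in MDA-MB-231 shNRP1#3 replicate 3 stand beside SUM159PT markers at 1.26% and HS578T markers at 1.49% of their own-line level in that sample.

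For shNT against siNT, H4C8 had log2 fold changes of 0.07, 1.43 and 2.75 in the same order (adjusted p = 0.0054), and H4C14 had -1.24, 0.66 and 0.90 (adjusted p = 0.0152). H3C6 had -1.42 in SUM159PT and 1.56 in HS578T (adjusted p = 0.0101) and lies in the run near 0 in MDA-MB-231.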

How the results depend on the processing

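No change of setting reversed any of the 177 differences of named genes, and 89 of them were called in every alternative run. The 177 were mostly chosen because they were called. They pool NRP1, the knockdown contrasts and the comparisons of lines, some of whose directions were set by the filter on low counts. The pooled figures therefore do not measure how well the knockdown calls held, which is given above for the named histone genes and for SLBP, ERI1 and HINFP. With no filter on low counts, the number of histone genes called became 5 (from 0) for SUM159PT siNRP1#3, 1 (from 0) for SUM159PT shNRP1#3, 8 (from 5) for SUM159PT shNRP1#5, 5 (from 2) for MDA-MB-231 shNRP1#3, 2 (from 1) for HS578T siNRP1#3 and 1 (from 0) for HS578T shNRP1#5, and in the tests between lines 2 (from 0) for siNRP1#3 and 6 (from 2) for shNRP1#5. DESeq2 called 2 for SUM159PT siNRP1#3, 1 for SUM159PT shNRP1#3, 4 for MDA-MB-231 shNRP1#3 and 1 each for HS578T shNRP1#3 and shNRP1#5. A fit of the 2 groups alone, with fewer samples, called 2 for SUM159PT siNRP1#3, 0 for SUM159PT siNRP1#5, 1 for SUM159PT shNRP1#3, 2 for MDA-MB-231 siNRP1#5 (from 12), 4 for MDA-MB-231 shNRP1#3 and 3 for HS578T shNT against siNT. Subtracting reads of other lines gave 0, 1 and 3 for HS578T siNRP1#3, siNRP1#5 and shNT, and summing identical copies gave 3 for SUM159PT shNT, where fewer genes were tested. The log2 ratio of summed TPM in MDA-MB-231 siNRP1#3 (-0.38) was -0.47 on CPM and 0.15 without H2BC12, and that of siNRP1#5 (0.29) was 0.51 on CPM. Apart from the last 2 groups of settings, the cause was not tested. RLE scaling moved none of these counts.

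With the replicate number as a block, 1 gene was called for SUM159PT siNRP1#3 (from 0) and 5 (from 3) for shNT against siNT between lines. The block changed no other count by over 1.5 times.

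Leaving out 1 replicate gave 0 to 1 calls for SUM159PT siNRP1#3, 2 to 7 for siNRP1#5, 0 to 0 for shNRP1#3, 0 to 3 for shNRP1#5 and 0 to 10 for shNT. In MDA-MB-231 it gave 2 to 8 for siNRP1#3, 3 to 10 for siNRP1#5, 0 to 3 for shNRP1#3, 3 to 7 for shNRP1#5 and 4 to 6 for shNT. In HS578T it gave 0 to 1 for siNRP1#3, 1 to 3 for siNRP1#5, 0 to 0 for either shRNA and 1 to 9 for shNT. Between lines it gave 29 to 38 (SUM159PT against MDA-MB-231), 36 to 40 (HS578T against MDA-MB-231) and 15 to 21 (HS578T against SUM159PT, 24 with all samples and 15 without replicate 2), and for the tests of differences 0 to 0 (siNRP1#3), 0 to 7 (siNRP1#5), 0 to 0 (shNRP1#3), 0 to 1 (shNRP1#5) and 0 to 3 (shNT). The call for SUM159PT siNRP1#3 appeared without siNT replicate 2.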
